A study of Mus musculus with 12 samples.

Results

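The genes described here are 34 adhesion molecules of leukocytes: 18 integrin alpha chains, 8 integrin beta chains, P-selectin (Selp) and its ligand PSGL-1 (Selplg), the hyaluronan receptor Cd44, and 5 members of the immunoglobulin superfamily (Icam1, Icam2, Icam4, Vcam1 and Pecam1). They were chosen by name, and each was found as 1 row among the 45706 genes of a table of read counts from polyadenylated RNA of murine T cells. The 12 libraries form 4 groups of 3: conventional T cells of WT mice (WT_con), conventional T cells of the Coro1-/- genotype (KO_con), which the design text calls a Coronin1A knockout, regulatory T cells of WT mice (WT_trg) and regulatory T cells of the Coro1-/- genotype (KO_trg). Coro1a encodes coronin 1A, an actin-binding protein of leukocytes. No treatment was labelled in any group. The organ, sort, age and sex of the animals, the number of animals per library and the construction of the allele are not given in the sources used here, so a p-value here reflects the spread among the libraries alone. In each group the libraries differed in Xist and Y-linked reads, as given below, so the 3 libraries of a group were not all made from 1 animal.

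Integrins are receptors of 1 alpha and 1 beta chain that bind matrix proteins or ligands on other cells, and their beta tails are coupled to actin through talin and kindlin. On T cells, LFA-1 (Itgal with Itgb2) binds ICAM proteins, VLA-4 (Itga4 with Itgb1) binds VCAM-1 and fibronectin, Itga4 with Itgb7 binds MAdCAM-1 in gut vessels, and Itgae with Itgb7 binds E-cadherin on epithelium. Selectins capture leukocytes in flow through sugars carried on PSGL-1, and CD44 holds cells on hyaluronan. The pairing rules matter for reading the values below, since a beta chain such as Itgb2 or Itgb1 is shared by several receptors, and mRNA of a chain does not give the surface level of a pair.

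Between 19686870 and 33404302 reads per library were assigned to genes, and 32 of the 34 genes had enough reads to be tested. Coro1a itself fell from 2295 ± 149 CPM (counts relative to the TMM-scaled library size, mean ± SD, n = 3) in WT_con to 45.2 ± 1.82 in KO_con, and from 2509 ± 200.2 in WT_trg to 26.7 ± 5.07 in KO_trg, as the labels say (log2 fold changes -5.67 and -6.55, edgeR adjusted p = 2.75e-09 and 8.62e-10). Regulatory T cell markers (8 genes including Foxp3) summed to 180.0 to 243 CPM in WT_con, 321 to 504 in KO_con, 2272 to 2572 in WT_trg and 2003 to 2586 in KO_trg. Markers of other cells were also present. The 15 macrophage and monocyte markers summed to 373 to 575, 1923 to 4129, 1198 to 1601 and 1280.2 to 2777 CPM in the same order of groups, the 14 neutrophil markers to 8.90 to 16.2, 369 to 739.9, 64.9 to 122 and 129 to 312, and the 12 B cell markers to 10.8 to 17.4, 48.3 to 88.5, 4219.7 to 5921 and 4795 to 5877. Every gene of these 3 lists had reads in every group. The summed level of 6 T cell genes went the other way, at 3063 to 3352, 1949 to 2316, 1683 to 2323 and 1083 to 1663 CPM. WT_trg replicate 3 and KO_trg replicate 1 held both Xist (764 and 576 CPM) and Y-linked reads (20.2 and 61.2 CPM), whereas the other 10 libraries were high in 1 or the other alone. Without both, the 5 comparisons below called 25, 6, 25, 24 and 22 of the 32 genes in place of 24, 6, 24, 19 and 18. In bulk RNA, fewer cells of a type and less RNA per cell cannot be told apart.

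Promoter sequence of 3 genes is shown because Itgam and Icam1 are among the genes that rose in the knockout, as described below, and because Itgax, the neighbour of Itgam, rose with it. The set of RefSeq promoters used here held 22 of the 34 genes (GRCm38.p6). The others, among them Vcam1, were not searched. The lines give the 250 bases before the RefSeq start on the plus strand, for Itgam at chr7:128062390-128062639, for Itgax at chr7:128129300-128129549 and for Icam1 at chr9:21015690-21015939. Capitals in Itgam mark GAGGAA, the core bound by the myeloid factor PU.1, and in Icam1 they mark GGAAATTCC, a form of the NF-kappaB site. Both strands were searched.
Itgam: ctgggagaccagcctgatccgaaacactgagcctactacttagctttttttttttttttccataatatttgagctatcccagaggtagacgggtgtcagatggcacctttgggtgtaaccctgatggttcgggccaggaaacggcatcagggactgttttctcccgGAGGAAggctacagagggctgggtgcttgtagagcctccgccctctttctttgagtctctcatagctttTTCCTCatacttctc
Itgax: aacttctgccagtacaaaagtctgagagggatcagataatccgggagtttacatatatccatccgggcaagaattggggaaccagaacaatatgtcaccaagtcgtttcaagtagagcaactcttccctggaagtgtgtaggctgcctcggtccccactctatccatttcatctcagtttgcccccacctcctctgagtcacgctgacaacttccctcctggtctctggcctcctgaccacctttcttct
Icam1: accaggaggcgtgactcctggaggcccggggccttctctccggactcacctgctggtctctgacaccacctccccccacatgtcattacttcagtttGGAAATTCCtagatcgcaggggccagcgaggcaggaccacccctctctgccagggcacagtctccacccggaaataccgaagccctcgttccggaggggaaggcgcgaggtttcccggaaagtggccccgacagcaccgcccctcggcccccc
GAGGAA began 84 bases before the Itgam start and, on the minus strand, 15 bases before it, and was not in the Itgax window. These 6 letters lie in 23.3% of 32851 promoter windows of the same length, and in 9 of the 22 genes here. GGAAATTCC began 153 bases before the Icam1 start. It is rarer, in 0.286% of windows, and Icam1 alone of the 22 had it. No window shown holds both motifs. A match describes the letters and does not show that a factor binds.

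Per kilobase of exon, the T cell integrins stood highest. In WT_con, Itgb7 was at 320.0 CPM per kilobase, Itgb2 at 233, Itgal at 122 and Selplg at 121. The same 4 genes led in each of the 4 groups. Itga4 followed at 59.6, and Icam2, Pecam1, Itgb1 and Itgb3 lay between 41.6 and 43.7, too close to order by these libraries. At the low end, Itga1, Itgb4 and Itga8 were at 0.0932, 0.0312 and 0.00449 in WT_con. Itga11 had 24 reads and Itgb6 had 4 over all 12 libraries, and both were too low to test. Itgae moved from rank 24 in WT_con to rank 13 in KO_trg, and Itga7 from rank 19 to rank 30, the widest moves among the tested genes.

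**Figure D1:**
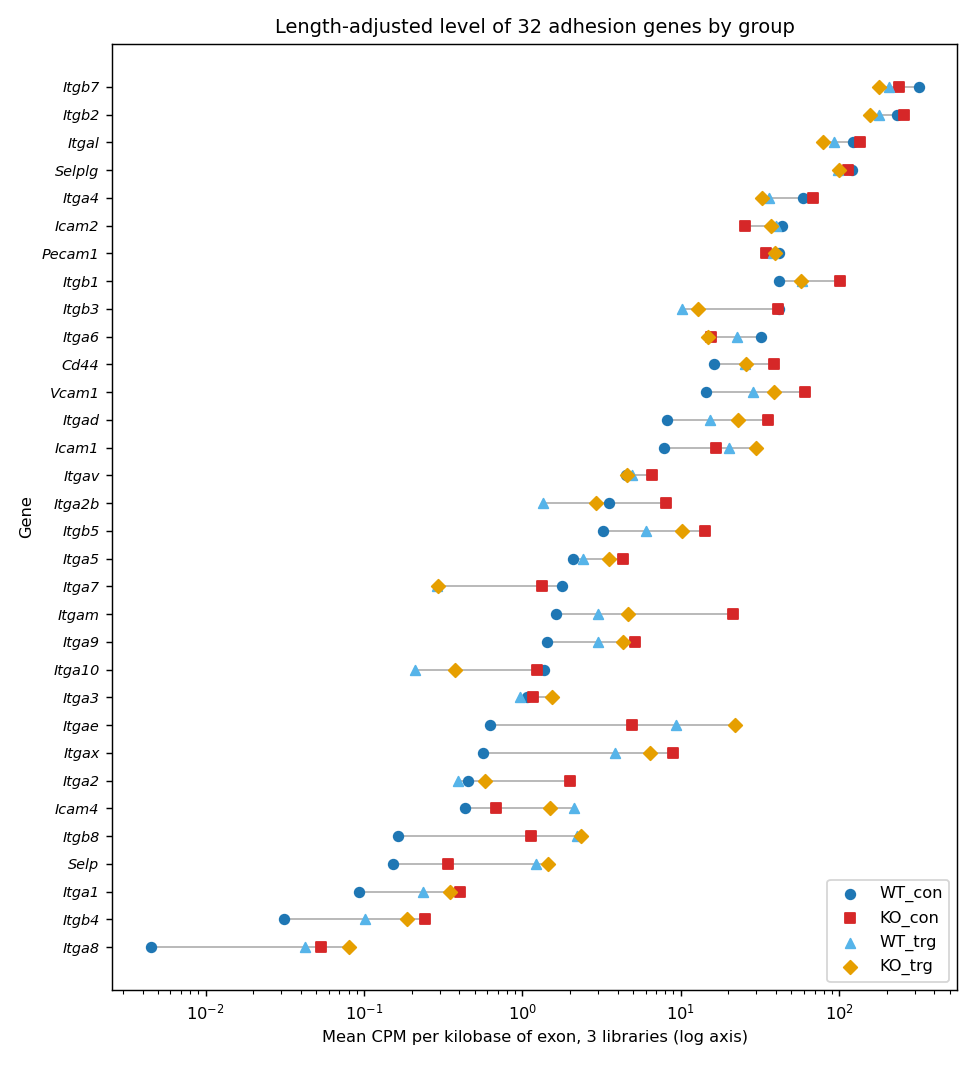
Mean level of the 32 tested genes in CPM per kilobase of exon (log axis), 1 marker per group of 3 libraries, with genes ordered by their level in WT_con. The 4 genes at the top lead in every group, and the spread between groups is widest among genes of middle and low level such as Itgae, Itgax and Itgam.

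In conventional T cells the knockout libraries held more RNA of most of these genes. Of the 32 tested, 20 rose in KO_con against WT_con and 4 fell (edgeR quasi-likelihood test, Benjamini-Hochberg adjusted p below 0.05), where 23.3% of all 15922 genes tested rose and 25.4% fell. The median log2 fold change was 1.12 over the 32 genes, with a range of -1.07 to 3.99, and -0.05 over all genes. Scaled to the 6 T cell genes in place of all genes (TMM), 25 rose and 1 fell, and of all genes 7006 rose and 60 fell in place of 3706 and 4043, since that scaling moves the median of all genes to 0.53. In regulatory T cells, 5 rose and 1 fell between KO_trg and WT_trg, where 4.01% of all genes rose and 3.82% fell, with a median of 0.39 over the 32 genes and 0.00 over all genes. This count was 3 without WT_trg replicate 1 or WT_trg replicate 2 and with only the regulatory libraries in the fit, 10 with DESeq2, and 13 with T cell gene scaling, none of them lower. The 2 comparisons share no library. Itga5, Itgae and Icam1 rose in both and Itga6 fell in both, and these 4 are 16.7% of the 24 genes called in conventional cells and 66.7% of the 6 called in regulatory cells. No gene was called in opposite directions.

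**Figure D2:**
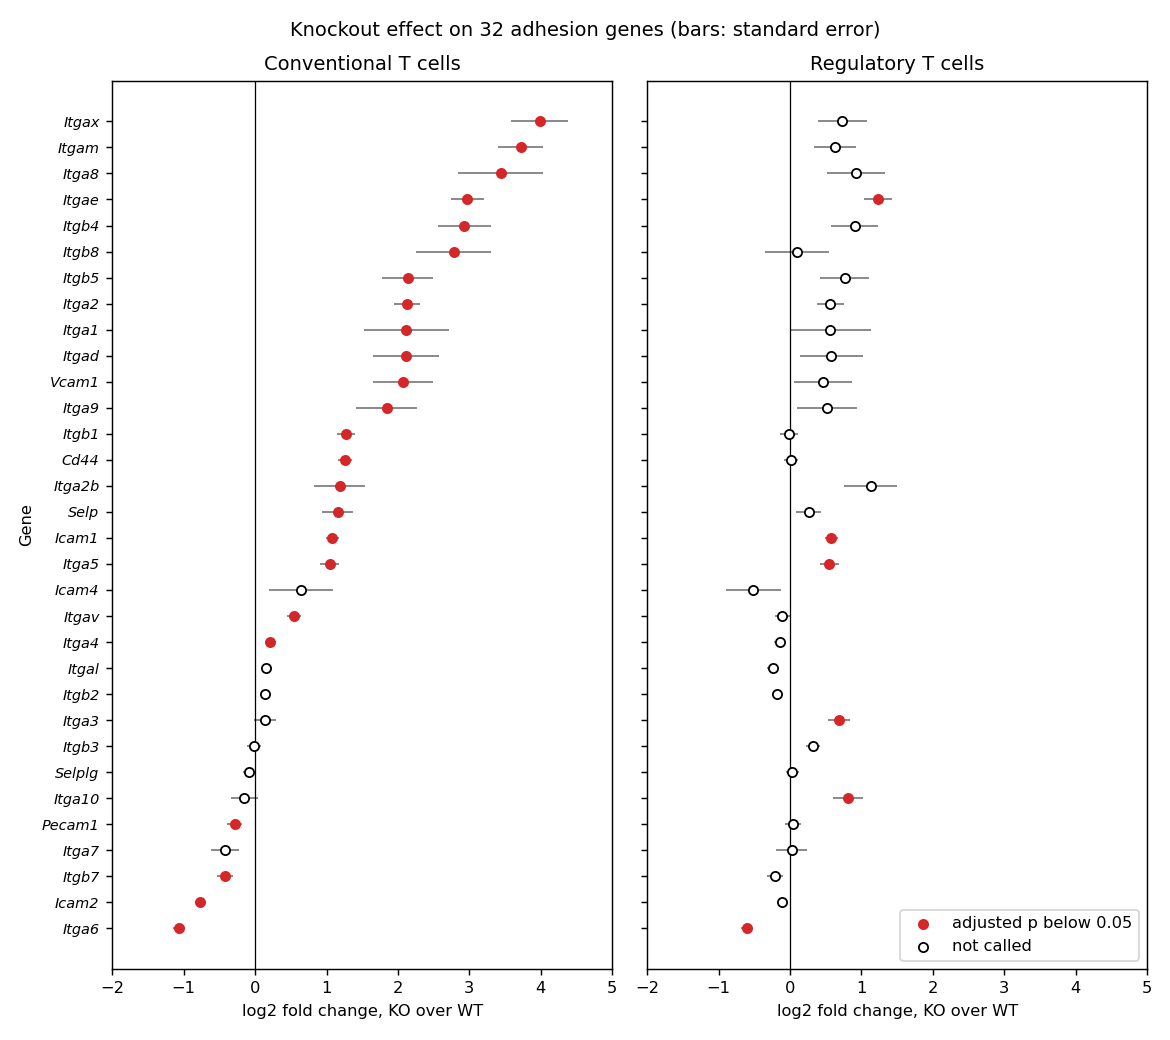
Log2 fold change of each tested gene between knockout and WT, in conventional and in regulatory T cells, with bars of 1 standard error from the edgeR fit. Most genes lie further to the right in conventional than in regulatory cells, with Itgax (3.99) and Itgam (3.72) at the far end, and Itga6 lies to the left in both.

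Among the leukocyte beta 2 integrins, 3 of 5 genes rose in KO_con and none was called in KO_trg by edgeR, where 2 (Itgal and Itgb2) had an unadjusted p below 0.05 and DESeq2 called the same 2. Of all genes, 23.3% rose and 25.4% fell in KO_con, and 4.01% rose and 3.82% fell in KO_trg. With 5 genes, no call in KO_trg is near those shares. The myeloid alpha chains made up the rise in KO_con. Itgam, the alpha chain of the complement receptor CR3 on myeloid and NK cells, was at 7.94, 9.10 and 7.40 CPM in the WT_con libraries and 103, 77.5 and 142 in KO_con, a log2 change of 3.72 (SE 0.32, adjusted p = 8.38e-06). Itgax, CD11c of dendritic cells and macrophages, was at 2.02, 3.36 and 2.79 in WT_con and 37.5, 30.7 and 61.5 in KO_con, a change of 3.99 (SE 0.40, adjusted p = 2.17e-05). Itgad, an alpha chain of splenic macrophages, was at 26.8, 51.8 and 32.3 in WT_con and 174, 104 and 201 in KO_con, a change of 2.11 (SE 0.46, adjusted p = 0.00298). For all 3, every KO_con library was above every WT_con library. The share of all genes whose groups do not overlap was not counted, here or for the genes below. In regulatory cells the groups overlapped for the same 3 genes. Itgam was at 14.2, 13.2 and 17.7 in WT_trg and 35.8, 15.5 and 18.7 in KO_trg (log2 fold change 0.63, adjusted p = 0.205). Itgax was at 16.7, 13.9 and 24.5 in WT_trg and 47.2, 22.0 and 22.5 in KO_trg (0.73, adjusted p = 0.206), and Itgad at 66.2, 56.6 and 85.5 in WT_trg and 193, 61.5 and 55.7 in KO_trg (0.57, adjusted p = 0.44). KO_trg replicate 1 was the highest library of its group for Itgam, Itgax and Itgad.

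The LFA-1 chains of T cells were called in neither genotype comparison. Itgal was at 872, 777 and 757 CPM in WT_con, 832, 918 and 938 in KO_con, 635, 614 and 589.7 in WT_trg and 467, 545 and 553 in KO_trg. Its log2 fold change was 0.16 (adjusted p = 0.132) in conventional and -0.23 (adjusted p = 0.108) in regulatory cells. Itgb2 was at 716, 723 and 697 CPM in WT_con and 789, 750.4 and 816 in KO_con, and at 586, 539 and 514 in WT_trg and 486, 485 and 475 in KO_trg, with changes of 0.14 (adjusted p = 0.0708) and -0.18 (adjusted p = 0.0877). The KO_con libraries of Itgb2 were all above those of WT_con and the KO_trg libraries of both genes were all below those of WT_trg. Both conventional differences passed the threshold with other scaling factors, for example upper-quartile factors, at 0.22 (adjusted p = 0.0434) for Itgal and 0.21 (adjusted p = 0.0135) for Itgb2. Over all alternatives their adjusted p ran from 0.00313 to 0.351 and from 0.00672 to 0.214. Itgal, Itgam, Itgax and Itgad are neighbours of the targeted gene: they lie on chromosome 7 (GRCm38) at chr7:127296260-127335138, chr7:128062640-128118491, chr7:128129547-128150657 and chr7:128154376-128223816, which is 0.588, 1.355, 1.422 and 1.447 megabases from Coro1a. No other gene of the 34 is on this chromosome.

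Several of these genes followed the summed macrophage and monocyte markers from library to library. Within each of the 4 groups, the library with the highest marker sum was also the highest for Itga9, Itgad, Itgam, Itgax, Itgb5 and Vcam1. These were 6 of the 32 tested genes. The top library matched in 3, 2, 1 and 0 groups for another 4, 9, 8 and 5 genes, and the share over all genes was not counted. Vcam1, the ligand of VLA-4 on endothelium and also made by resident macrophages, was at 91.5, 167 and 127 CPM in WT_con and 555, 354 and 708 in KO_con, a log2 change of 2.07 (SE 0.42, adjusted p = 0.00198). It was at 234, 209.6 and 314 in WT_trg and 611, 246 and 184 in KO_trg, where the groups overlapped (adjusted p = 0.505). The CPM of Vcam1 spanned 7.74-fold over the 12 libraries, and its level per 100 CPM of the macrophage markers spanned 2.05-fold, with group means of 27.5, 18.9, 18.5 and 18.5 in WT_con, KO_con, WT_trg and KO_trg. For Itgb5, a partner of alpha v, the spans were 7.96-fold in CPM and 1.70-fold relative to the markers. For Itgad they were 7.501-fold and 2.10-fold. The mean ratio of each of these 3 genes to the markers was lower in KO_con than in WT_con. Itgam differed: its level per 100 CPM of macrophage markers was 1.80 in WT_con and 3.79 in KO_con, against 1.11 in WT_trg and 1.31 in KO_trg. For Itgax this level was 0.586 in WT_con and 1.505 in KO_con, against 1.33 in WT_trg and 1.72 in KO_trg, so that KO_trg and not KO_con was highest. The neutrophil, NK and dendritic cell markers, which go with Itgam or Itgax in other settings, were also higher in KO_con, the 10 NK cell markers at 412 to 747 CPM against 94.6 to 118 in WT_con and the 10 dendritic cell markers at 101 to 134 against 16.5 to 24.3. The part of these cells in the rise of Itgam and Itgax was not tested. Nor was the part of macrophages in the rise of Vcam1, Itgb5, Itgad and Itga9.

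**Figure D3:**
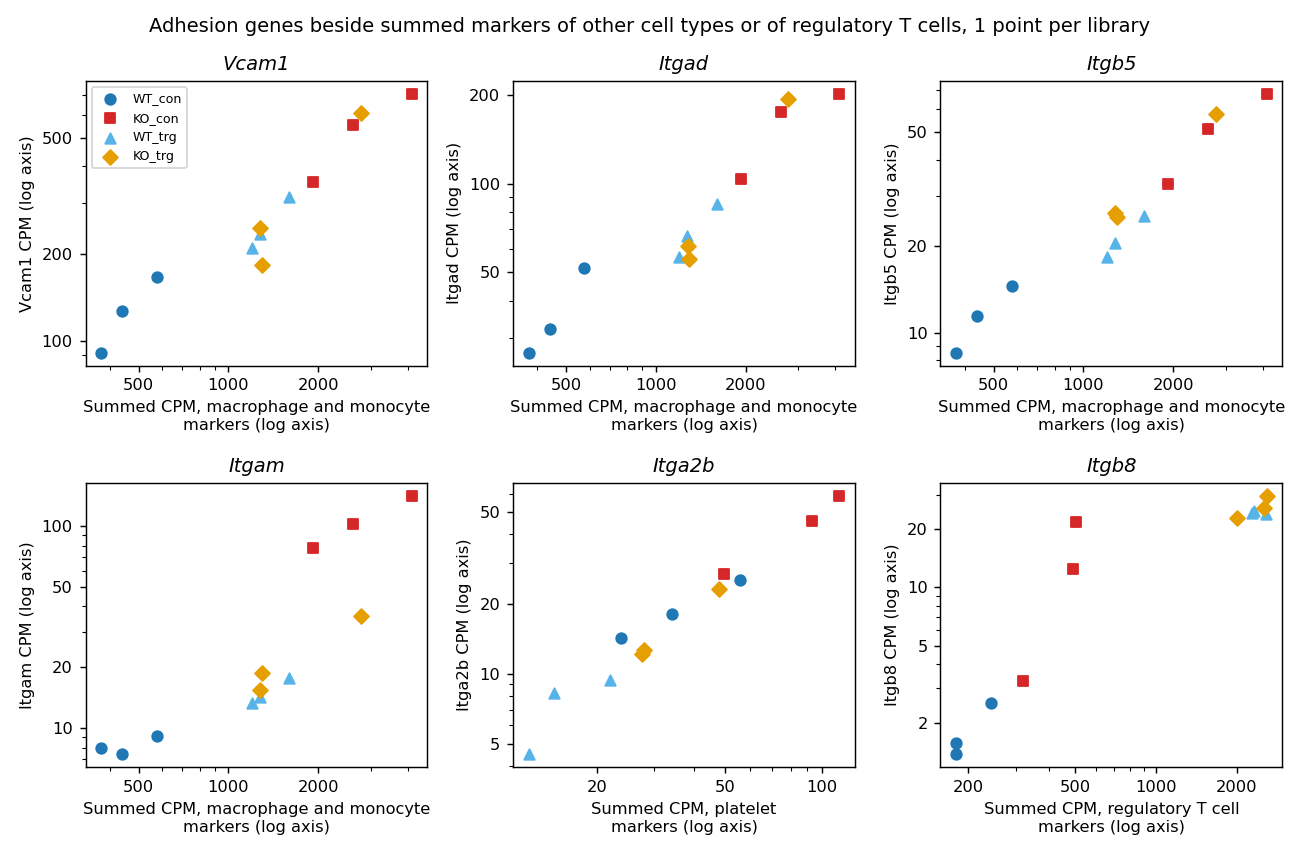
CPM of 6 genes (vertical, log axis) against the summed CPM of a marker list (horizontal, log axis), 1 point per library and 1 symbol per group. Vcam1, Itgad and Itgb5 lie along 1 rising band over all 4 groups, Itgam is higher at a given marker sum in KO_con than in the regulatory groups, Itga2b follows the platelet markers, and Itgb8 is highest in the regulatory libraries and in 2 of the 3 KO_con libraries.

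Among the beta 1 integrin and its matrix-binding partners, 6 of 10 tested genes rose and 1 fell in KO_con. Of all genes, 23.3% rose and 25.4% fell there. Itgb1 (ENSMUSG00000025809, chr8:128685654-128733200), the shared beta chain of the VLA receptors, was at 207, 157 and 150.3 CPM in WT_con and 341, 437 and 464 in KO_con, a log2 change of 1.27 (SE 0.13, adjusted p = 2.57e-05). In regulatory cells it was at 245, 247 and 221 in WT_trg and 246, 241 and 219.9 in KO_trg, a change of -0.01 (SE 0.13, adjusted p = 0.969). Its mean in KO_con, 414 ± 64.3 CPM, was above that of each other group. Of its partners, Itga2, a collagen-binding chain also carried by NK cells and platelets, was at 3.30, 3.03 and 3.36 CPM in WT_con and 13.3, 12.2 and 17.1 in KO_con, a change of 2.13 (SE 0.18, adjusted p = 8.87e-06). Its level per 100 CPM of the NK cell markers spanned 2.06-fold over the 12 libraries against 6.57-fold in CPM, with group means of 3.16 in WT_con and 2.57 in KO_con. Itga5, the fibronectin-binding chain, was at 11.2, 10.6 and 9.03 in WT_con and 21.3, 18.7 and 23.6 in KO_con, a change of 1.05 (SE 0.13, adjusted p = 9.12e-05). The groups did not overlap for any of the 3. The part of the other cell types, whose markers were higher in KO_con, in the rise of Itgb1, Itga2 and Itga5 was not tested.

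The laminin-binding chain Itga6 (ENSMUSG00000027111, chr2:71745616-71858416) went the other way. It was at 299, 291 and 286 CPM in WT_con and 147, 141 and 129.7 in KO_con, a log2 change of -1.07 (SE 0.08, adjusted p = 4.94e-06), and at 231, 188 and 192 in WT_trg and 133, 144 and 124 in KO_trg, a change of -0.61 (SE 0.08, adjusted p = 0.00305). All knockout libraries were below all WT libraries in both cell types. With T cell gene scaling the conventional change was -0.48 (adjusted p = 0.0443) and the regulatory one -0.07 (adjusted p = 0.753), with ranges over the alternatives of 1.86e-32 to 0.0443 and 7.91e-10 to 0.753. Itga5 also rose in regulatory cells, from 11.4, 11.2 and 13.3 CPM in WT_trg to 20.2, 16.2 and 16.1 in KO_trg, a change of 0.55 (SE 0.13, adjusted p = 0.0281). This call was lost without any 1 of the regulatory libraries except WT_trg replicate 3, and over the alternatives the adjusted p ran from 0.0056 to 0.1. The 13 endothelium and stroma markers summed to 55.3 to 253 CPM in WT_trg and 186 to 546 in KO_trg. Their part in the rise of Itga5 in regulatory cells was not tested.

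The other partners of beta 1 were lower in level. Itga1, a collagen receptor of tissue-resident lymphocytes, was at 3.13, 1.21 and 0.865 CPM in WT_con and 6.46, 4.86 and 11.2 in KO_con, a log2 change of 2.11 (SE 0.60, adjusted p = 0.0124), with an adjusted p just above the threshold without WT_con replicate 2, WT_con replicate 3 or KO_con replicate 3 (range over the alternatives 0.000817 to 0.0525) and a value of 2.85 without WT_con replicate 1. The macrophage and NK cell marker sums were also higher in KO_con, and the part of those cells in the rise of Itga1 was not tested. Itga9, which pairs with beta 1 and binds VCAM-1 and tenascin, was at 9.89, 13.4 and 9.77 in WT_con and 38.1, 28.4 and 51.9 in KO_con, a change of 1.84 (SE 0.43, adjusted p = 0.00468). Itga3, a laminin receptor, was not called in conventional cells (0.14, adjusted p = 0.499) and rose in regulatory cells from 5.52, 4.75 and 6.19 in WT_trg to 10.4, 8.44 and 7.69 in KO_trg, a change of 0.69 (SE 0.16, adjusted p = 0.0243). Itga10, a collagen receptor, was at 0.866, 1.10 and 1.32 in WT_trg and 1.81, 1.97 and 2.07 in KO_trg, a change of 0.81 (SE 0.21, adjusted p = 0.043), and its change was -0.15 (adjusted p = 0.538) in conventional cells. The groups did not overlap for Itga3 or Itga10 in regulatory cells, but neither call was firm: that of Itga3 was lost without WT_trg replicate 1, WT_trg replicate 2 or KO_trg replicate 1 (range 0.00255 to 0.0965), and that of Itga10 was lost without 10 of the 12 libraries in turn and without both mixed libraries (range 0.0217 to 0.136). The endothelium and stroma markers were also higher in KO_trg on average, and their part in the rise of Itga3 and Itga10 was not tested. Itga7, another laminin receptor, was at 15.9, 12.8 and 14.3 in WT_con and 7.82, 12.7 and 11.9 in KO_con (-0.41, adjusted p = 0.101), and in regulatory cells its change was 0.02 (adjusted p = 0.964). Itga8 had 3 reads in WT_con and 41 in KO_con. Relative to the pooled assigned reads of each group, without TMM scaling, that was a ratio of 13.7. Its 95% exact counting interval, 4.36 to 68.9, holds counting error alone and not the spread between libraries. Itga11 had 0, 2, 4 and 18 reads in WT_con, KO_con, WT_trg and KO_trg, and Itgb6, an alpha v partner of epithelium, had 0, 2, 0 and 2.

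The gut-homing and epithelial integrins split between genotypes. Itgae (ENSMUSG00000005947, chr11:73090583-73147446), the CD103 chain that binds E-cadherin and marks subsets of regulatory T cells, gamma delta T cells and dendritic cells, was at 3.87, 2.31 and 2.40 CPM in WT_con and 18.6, 23.1 and 25.7 in KO_con, a log2 change of 2.97 (SE 0.23, adjusted p = 5.41e-06). In regulatory cells it rose from 45.9, 49.2 and 33.9 in WT_trg to 80.5, 104 and 118 in KO_trg, a change of 1.23 (SE 0.20, adjusted p = 0.00581). Every knockout library was above every WT library in both cell types, and both calls held in every alternative tried. Markers of cells that carry CD103 moved with it in part: the 6 gamma delta T cell markers summed to 26.8 to 44.1 CPM in WT_con, 221 to 243 in KO_con, 40.9 to 90.2 in WT_trg and 81.2 to 178 in KO_trg. In the same order of groups, the 10 dendritic cell markers summed to 16.5 to 24.3, 101 to 134, 421 to 506 and 487 to 588. The 8 regulatory T cell markers summed to 180.0 to 243, 321 to 504, 2272 to 2572 and 2003 to 2586. The part of these 3 kinds of cells in the result was not tested. The partner chain Itgb7 was lower in KO_con, at 879, 916 and 865 in WT_con and 659.5, 678 and 648 in KO_con, a change of -0.42 (SE 0.12, adjusted p = 0.011) that turned to 0.17 (adjusted p = 0.295) with T cell gene scaling (range 8.46e-05 to 0.295). In regulatory cells it was at 612, 591 and 514 in WT_trg and 389, 534 and 561 in KO_trg, a change of -0.21 (SE 0.12, adjusted p = 0.279), with KO_trg replicate 1 the lowest library. Itga4 was at 893, 807 and 797 in WT_con and 912, 1045 and 933 in KO_con. Its change of 0.21 (SE 0.08, adjusted p = 0.0431) was called, although it was lost without WT_con replicate 2, WT_con replicate 3, KO_con replicate 2, KO_con replicate 3 or WT_trg replicate 1, with no filter on low counts and with the replicate number as a block (range 0.00748 to 0.165). In regulatory cells Itga4 was at 502, 476 and 535 in WT_trg and 470.4, 476 and 423 in KO_trg, a change of -0.14 (SE 0.08, adjusted p = 0.271).

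Of the alpha v, platelet and other beta integrins, 5 of 6 tested genes rose in KO_con and none was called in KO_trg by edgeR, where 4 (Itga2b, Itgb3, Itgb4 and Itgb5) had an unadjusted p below 0.05 and DESeq2 called 2 (Itga2b and Itgb3). Of all genes, 23.3% rose and 25.4% fell in KO_con, and 4.01% rose and 3.82% fell in KO_trg. With 6 genes, no call in KO_trg is near those shares. Itgav, which pairs with several beta chains and binds vitronectin and latent TGF-beta, was at 55.1, 46.5 and 43.5 CPM in WT_con and 62.4, 78.0 and 70.6 in KO_con, a log2 change of 0.54 (SE 0.10, adjusted p = 0.0011). Itgb8, the partner with which alpha v activates TGF-beta on regulatory T cells, was at 2.52, 1.37 and 1.57 in WT_con and 3.27, 21.9 and 12.4 in KO_con, a change of 2.78 (SE 0.53, adjusted p = 0.00132). The KO_con libraries of Itgb8 were far apart, the change was 2.10 (adjusted p = 0.00343) without KO_con replicate 2 (range 3.31e-06 to 0.0377), and the regulatory T cell markers of those libraries summed to 321, 504 and 489 CPM in the same order, against 243, 180.0 and 180.1 in WT_con. The part of regulatory T cells in the rise of Itgb8 in KO_con was not tested. In the regulatory libraries Itgb8 was at 24.05, 24.8 and 24.3 in WT_trg and 22.9, 29.8 and 25.7 in KO_trg (0.10, adjusted p = 0.916). Itgb5 was at 8.51, 14.6 and 11.4 in WT_con and 51.2, 32.9 and 67.7 in KO_con, a change of 2.14 (SE 0.35, adjusted p = 0.000569). Itgb4, a laminin receptor chain of epithelium, stayed under 5 CPM in all groups and went from 0.219 ± 0.0550 CPM (SD, n = 3) in WT_con to 1.70 ± 0.380 in KO_con, a change of 2.93 (SE 0.37, adjusted p = 9.08e-05).

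Itga2b and Itgb3 form the fibrinogen receptor of platelets, and their RNA levels went apart here. Itga2b was at 14.3, 18.2 and 25.4 CPM in WT_con and 45.7, 27.0 and 58.8 in KO_con, a log2 change of 1.18 (SE 0.35, adjusted p = 0.0161), and this call was lost without WT_con replicate 1, WT_con replicate 2 or KO_con replicate 3 (range 0.00224 to 0.0732). Within each of the 4 groups its libraries stood in the order of their 10 summed platelet markers, and its level per 100 CPM of those markers spanned 1.63-fold over the 12 libraries against 13.1-fold in CPM. The group means of that ratio were 52.8, 51.6, 45.3 and 45.9. The part of platelets in the rise of Itga2b was not tested. In conventional cells Itgb3 was at 243, 238 and 255 in WT_con and 255, 238 and 234 in KO_con, a change of -0.02 (SE 0.09, adjusted p = 0.893). In regulatory cells Itgb3 was at 63.8, 62.8 and 55.0 in WT_trg and 62.3, 81.2 and 82.9 in KO_trg, a change of 0.32 (SE 0.10, adjusted p = 0.0687) that passed the threshold without KO_trg replicate 1 (0.44, adjusted p = 0.00751) and without both mixed libraries (0.38, adjusted p = 0.00578), with a range over the alternatives of 0.00554 to 0.198.

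Cd44 (ENSMUSG00000005087, chr2:102811141-102901665), which is higher on activated and memory T cells, was at 123, 105 and 104 CPM in WT_con and 259, 233 and 302 in KO_con, a log2 change of 1.26 (SE 0.10, adjusted p = 5.41e-06). In regulatory cells it was at 165, 172 and 183 in WT_trg and 190.4, 173 and 163 in KO_trg, a change of 0.02 (SE 0.10, adjusted p = 0.932). The KO_con libraries were above all 9 others. The macrophage and NK cell marker sums were also higher in KO_con than in WT_con, and the part of those cells in the rise of Cd44 was not tested. Selplg was at 513, 520.3 and 520.1 in WT_con, 498, 467 and 499.7 in KO_con, 449, 437 and 371 in WT_trg and 372, 436 and 476 in KO_trg, and was called in neither genotype comparison. With T cell gene scaling its changes were 0.51 (adjusted p = 0.0149) and 0.55 (adjusted p = 0.03), near the 0.53 of all genes under that scaling. Selp was low in conventional cells, at 0.841, 0.619 and 0.545 in WT_con and 1.72, 1.17 and 1.58 in KO_con, a change of 1.15 (SE 0.21, adjusted p = 0.00105). The platelet markers summed to 23.8 to 55.9 CPM in WT_con and 49.9 to 114 in KO_con. The part of platelets in the rise of Selp was not tested. In regulatory cells Selp was at 5.20, 5.27 and 5.61 in WT_trg and 6.53, 6.83 and 5.90 in KO_trg (0.26, adjusted p = 0.388).

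**Figure D4:**
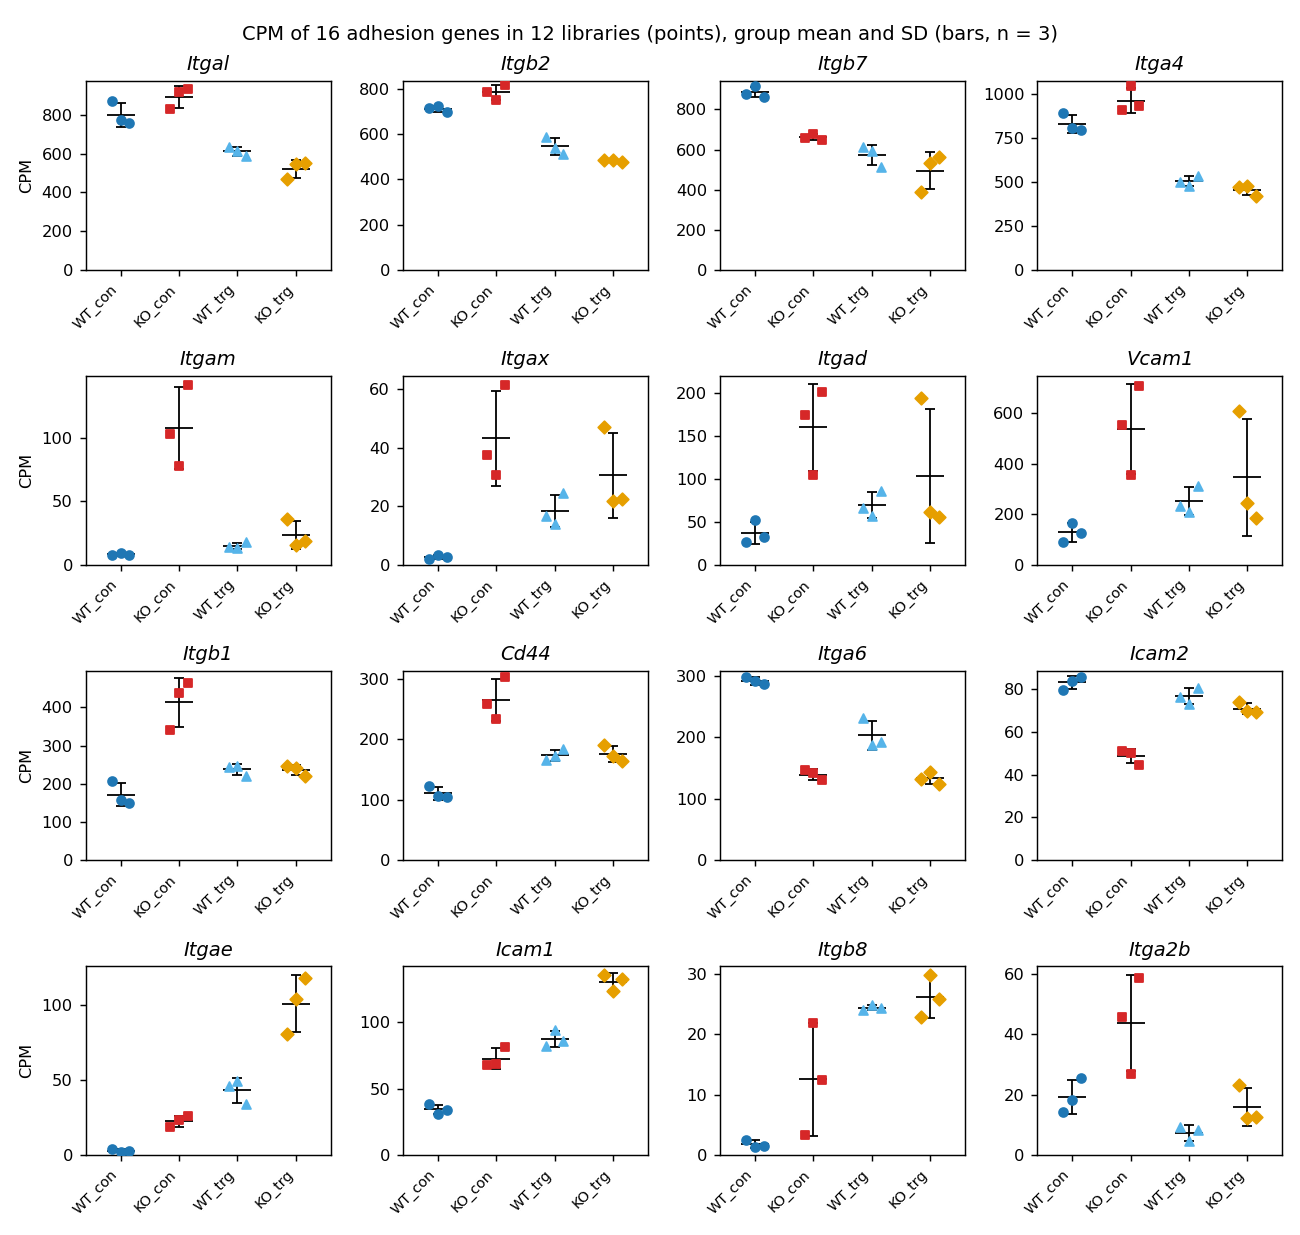
CPM of selected genes in each of the 12 libraries, 1 point per library, with bars at the mean and SD of each group of 3. For Itgb1 and Cd44 the KO_con libraries lie above all others, Icam1 and Itgae rise with the knockout in both cell types, and Itga6 falls in both.

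The 5 immunoglobulin superfamily ligands split, with 2 rising and 2 falling in KO_con, where 23.3% of all genes rose and 25.4% fell. Icam1 (ENSMUSG00000037405, chr9:21015985-21028817), the ligand of LFA-1 and CR3, was at 38.1, 30.9 and 33.96 CPM in WT_con and 67.6, 68.4 and 81.6 in KO_con, a log2 change of 1.08 (SE 0.09, adjusted p = 8.18e-06). It rose in regulatory cells as well, from 82.3, 93.9 and 86.3 in WT_trg to 136, 124 and 133 in KO_trg, a change of 0.58 (SE 0.09, adjusted p = 0.00532). All knockout libraries were above all WT libraries in both. The part of other cell types in the rise of Icam1 was not tested. Icam2 (ENSMUSG00000001029, chr11:106377656-106388075), another LFA-1 ligand, kept at a steady level on resting lymphocytes and endothelium, fell in conventional cells from 79.6, 83.9 and 85.8 in WT_con to 50.9, 50.0 and 44.7 in KO_con, a change of -0.78 (SE 0.06, adjusted p = 5.54e-06). It was -0.19 (adjusted p = 0.435) with T cell gene scaling (range 1.47e-25 to 0.435). In regulatory cells Icam2 was at 76.5, 73.0 and 80.6 in WT_trg and 73.8, 69.6 and 69.3 in KO_trg, a change of -0.11 (SE 0.06, adjusted p = 0.268). Pecam1, a homophilic receptor of leukocytes, platelets and endothelium, was at 255, 264 and 267 in WT_con and 223, 218 and 204 in KO_con, a change of -0.28 (SE 0.11, adjusted p = 0.0435). The Pecam1 call was lost without any 1 of the 6 conventional libraries or KO_trg replicate 2 and with 2 other scaling factors, and its sign turned with T cell gene scaling (0.30, range of adjusted p 0.00444 to 0.29). In regulatory cells Pecam1 was at 256, 206 and 256 in WT_trg and 287, 241 and 211 in KO_trg (0.04, adjusted p = 0.84). Icam4, a ligand of beta 2 integrins known from red cells, stayed under 5 CPM in all groups, was not called between genotypes, and was higher in regulatory than in conventional cells of WT mice (2.30, adjusted p = 0.000503). Without WT_trg replicate 2, the highest of its group (1.41, 4.11 and 1.55 CPM), that change was 1.61 (adjusted p = 0.00102), with a range of adjusted p over the alternatives of 5.5e-06 to 0.00332.

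Between the cell types, the regulatory libraries of WT mice held more RNA of 14 of the 32 genes and less of 10, where 39.1% of all genes rose and 33.3% fell, with a median log2 fold change of 0.34 for the 32 genes and 0.07 for all genes. Scaled to the T cell genes, 19 were higher and 3 lower. Itgae differed most, with a log2 change of 3.91 (SE 0.24, adjusted p = 8.8e-08). The change was 3.74 (SE 0.54, adjusted p = 6.65e-05) for Itgb8 and 2.999 (SE 0.21, adjusted p = 2.3e-07) for Selp, which was at 5.20, 5.27 and 5.61 CPM in WT_trg. Itga8 lay between these in its fitted change, on 3 reads in WT_con and 25 in WT_trg. Relative to the pooled assigned reads, without TMM scaling, that was a ratio of 9.62. Its 95% exact counting interval, 2.94 to 49.8, holds counting error alone. P-selectin is also made by endothelium and platelets. The endothelium and stroma markers summed to 2.31 to 3.23 CPM in WT_con and 55.3 to 253 in WT_trg and the platelet markers to 23.8 to 55.9 and 12.3 to 21.9, and the part of these cells in the level of Selp was not tested. Icam1 was higher in WT_trg as well, with 1.35 (SE 0.09, adjusted p = 2.07e-07). Genes carried on myeloid cells were higher in WT_trg too, Itgax with 2.75 (SE 0.39, adjusted p = 6.49e-05) and Itgam with 0.89 (SE 0.31, adjusted p = 0.0212), and so were the macrophage and B cell marker sums given above, whose part was not tested. The calls of Itgam, Itga9, Itgb5 and Vcam1 were each lost without WT_con replicate 1, WT_con replicate 3 or WT_trg replicate 3, among others. Over the alternatives the adjusted p ran from 0.000676 to 0.0996 for Itgam, from 0.00466 to 0.172 for Itga9, from 0.00356 to 0.125 for Itgb5 and from 0.00378 to 0.156 for Vcam1.

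The 10 genes lower in WT_trg were Itga2b, Itga4, Itga6, Itga7, Itga10, Itgal, Itgb2, Itgb3, Itgb7 and Selplg. Itga10 had a log2 change of -2.68 (SE 0.21, adjusted p = 5.94e-07). Itga7 went from 15.9, 12.8 and 14.3 CPM in WT_con to 2.71, 2.59 and 1.77 in WT_trg, a change of -2.62 (SE 0.22, adjusted p = 8.58e-07). Itgb3 went from 245 ± 8.60 CPM in WT_con to 60.5 ± 4.80 in WT_trg, a change of -2.02 (SE 0.10, adjusted p = 2.09e-08). Itga4, Itgb7, Itga6, Itgal, Itgb2 and Selplg were lower, with changes of -0.72, -0.63, -0.52, -0.39, -0.38 and -0.31, and adjusted p of 7.23e-06, 0.000444, 0.000124, 0.00125, 0.000131 and 0.0098. With T cell gene scaling, where the median of all genes lies at 0.71, Itga6, Itgal, Itgb2 and Selplg turned to 0.11, 0.25, 0.25 and 0.32, and Itga4 and Itgb7 stood at -0.07 and -0.00, so each still lay below that median.

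Between the knockout groups the balance was other: 6 genes were higher in KO_trg than in KO_con and 13 lower, where 36.1% of all genes were higher and 31.7% lower, with a median of -0.45 for the 32 genes and 0.03 for all genes. Scaled to the T cell genes, 10 were higher and 5 lower. Itgae (2.17, SE 0.20, adjusted p = 3.22e-06), Selp (2.10, SE 0.19, adjusted p = 2.57e-06) and Icam1 (0.85, SE 0.09, adjusted p = 8.17e-06) were again higher in regulatory cells. Itgam was lower in KO_trg, with a change of -2.20 (SE 0.29, adjusted p = 4.44e-05), as were Itga2 (-1.78, SE 0.18, adjusted p = 5.88e-06), Itgb1 (-0.81, SE 0.13, adjusted p = 0.000178) and Cd44 (-0.59, SE 0.10, adjusted p = 0.000222). Mean marker sums fell from 498 CPM in KO_con to 219 in KO_trg for neutrophils, from 2893 to 1784 for macrophages and from 566 to 111 for NK cells. Those of B cells, dendritic cells and endothelium and stroma were higher in KO_trg. The part of these cells in the 4 decreases was not tested. With T cell gene scaling, where the median of all genes lies at 0.62, Itgb1 and Cd44 stood at -0.22 (adjusted p = 0.406) and -0.00 (adjusted p = 0.995), with ranges over the alternatives of 9.26e-09 to 0.406 and 5.27e-07 to 0.995. Icam2 was higher in KO_trg, with 0.55 (SE 0.06, adjusted p = 1.22e-05). Each of the 2 cell type comparisons shares its conventional or regulatory libraries with a genotype comparison, so the 4 sets of values are not independent. Without both mixed libraries, or without KO_trg replicate 1 alone, which has the highest macrophage marker sum of its group, Itga5, Itga9, Itgad, Itgax, Itgb5 and Vcam1 were also called lower in KO_trg. Without both, Vcam1 stood at -1.32 (adjusted p = 0.00261) and Itgad at -1.44 (adjusted p = 0.00172), with ranges over the alternatives of 0.00261 to 0.905 and 0.00172 to 0.873. Itga3, called higher in KO_trg (0.40, adjusted p = 0.0368), lost that call (0.28, adjusted p = 0.119, range 0.00886 to 0.148). Conventional replicates 1 and 2 of both genotypes were high in Xist, and the regulatory libraries other than the 2 mixed ones were high in Y-linked genes, so sex and cell type can only in part be told apart in these comparisons. With a term for libraries with 100 CPM or more of Xist, Itgae, Itgb3 and Icam1 kept their calls in both.

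The effect of the knockout was then compared between the cell types by the interaction term, the regulatory effect minus the conventional one. It was above 0 for 3 of the 32 genes and below 0 for 15, where 8.86% of all genes had a difference above 0 and 12.4% below 0, with a median of -0.77 for the 32 genes and 0.02 for all genes. Only 7 differences were called with T cell gene scaling, each below 0, and without WT_con replicate 3 there were 11. The 7 were those of Itgae, Itgam, Itgax, Itgb1, Itgb4, Itgb8 and Cd44. Those of Itga2, Itgav and Icam2 were not called under that scaling (-1.60, adjusted p = 0.0552, -0.70, adjusted p = 0.191 and 0.61, adjusted p = 0.345, with ranges over the alternatives of 5.19e-06 to 0.0552, 0.000219 to 0.191 and 3.75e-09 to 0.345). The difference was -3.25 (SE 0.52, adjusted p = 0.00176) for Itgax, -3.09 (SE 0.42, adjusted p = 0.000785) for Itgam, -1.74 (SE 0.30, adjusted p = 0.0027) for Itgae, -1.56 (SE 0.26, adjusted p = 0.00214) for Itga2, -1.28 (SE 0.18, adjusted p = 0.00102) for Itgb1 and -1.24 (SE 0.14, adjusted p = 0.000269) for Cd44. Below 0 as well were 9 of 10 NK cell, 8 of 14 neutrophil and 8 of 10 dendritic cell markers, with none called above 0. The part of those cells in these differences was not tested. Itgae and Icam1 (-0.50, SE 0.13, adjusted p = 0.0175) rose in both cell types, with a larger fitted log2 change in conventional cells, where the WT level was lower. Mean CPM of Itgae went from 2.86 to 22.5 in conventional and from 43.0 to 101 in regulatory cells. That of Icam1 went from 34.3 to 72.6 and from 87.5 to 131. For Icam1 the difference was -0.56 with T cell gene scaling and no longer called (adjusted p = 0.47, range 0.00287 to 0.47). The differences above 0 were those of Icam2 (0.66, SE 0.09, adjusted p = 0.00062), Itga6 (0.46, SE 0.12, adjusted p = 0.016) and Itga10 (0.96, SE 0.28, adjusted p = 0.0337). The LFA-1 chains Itgal (-0.39, SE 0.12, adjusted p = 0.0348) and Itgb2 (-0.32, SE 0.08, adjusted p = 0.0202) and Itga4 (-0.35, SE 0.11, adjusted p = 0.0412) differed between the cell types by a little, with fitted changes above 0 in conventional and below 0 in regulatory cells. Itga5 rose in both, and the difference was not called (-0.50, adjusted p = 0.0754). Itga3, called in regulatory cells alone, had a difference of 0.55 (adjusted p = 0.0975). For Vcam1 the difference was -1.61 (adjusted p = 0.0669), and -2.11 (adjusted p = 0.00586) without both mixed libraries (range over the alternatives 0.00324 to 0.295). Itga9, Itgad, Itgb3, Itgb5 and Itgb7 were likewise called without both, and the calls of Itga4 and Selp were lost (-0.33, adjusted p = 0.0698 and -0.87, adjusted p = 0.0837, with ranges of 0.00793 to 0.683 and 0.0222 to 0.331).

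Genes that act around these receptors were taken from 3 lists. Of 39 tested genes of integrin activation and actin linkage, 6 rose and 19 fell in KO_con, with a median log2 fold change of -0.16, and 6 rose and 3 fell in KO_trg, with a median of 0.09. Of all genes, 23.3% rose and 25.4% fell in KO_con, and 4.01% rose and 3.82% fell in KO_trg. With upper-quartile factors 7 of the 39 rose and 10 fell in KO_con, and with T cell gene scaling 12 rose in KO_con and 18 in KO_trg and none fell. The count of 9 in KO_trg was 2 with only the regulatory libraries in the fit and 5 with the replicate number as a block. It was 5 without any 1 of the WT_con libraries or KO_con replicate 2, 3 without WT_trg replicate 2, 4 without KO_trg replicate 1 or KO_trg replicate 3, and 15 without WT_trg replicate 3. The focal adhesion protein zyxin (Zyx) rose in both cell types, from 181 ± 6.22 to 282 ± 32.5 CPM in conventional cells, a change of 0.64 (adjusted p = 8.43e-05), and from 133 ± 9.12 to 185 ± 8.43 CPM in regulatory cells, a change of 0.48 (adjusted p = 0.0067). In conventional cells vinculin (Vcl) rose from 6.53 ± 0.286 to 22.3 ± 5.87 CPM, a change of 1.77 (adjusted p = 0.000434), and the adaptor Skap2 rose from 14.2 ± 0.880 to 36.0 ± 4.98 CPM, a change of 1.34 (adjusted p = 9.69e-06). The macrophage and dendritic cell marker sums were also higher in KO_con, and the part of those cells in the rise of Vcl and Skap2 was not tested. The actin crosslinker Actn1 was lower, from 757 ± 11.1 to 402 ± 33.5 CPM, a change of -0.91 (adjusted p = 4.03e-05). Cytohesin 3 (Cyth3), an exchange factor for ARF, was lower in both cell types, with changes of -0.49 (adjusted p = 0.000401) and -0.44 (adjusted p = 0.00838). In regulatory cells Rap1a, the GTPase that activates integrins, was lower (-0.25, adjusted p = 0.0428), as was the adaptor Fyb (-0.36, adjusted p = 0.0399), whereas the talin gene Tln2 rose from 0.352 ± 0.151 to 1.12 ± 0.0276 CPM, a change of 1.61 (adjusted p = 0.0125). The mean endothelium and stroma marker sum was also higher in KO_trg than in WT_trg, and its part in the rise of Tln2 was not tested.

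Of 13 tested genes for the synthesis of selectin ligands, 6 rose and 4 fell in KO_con (median 0.19), and 2 rose and none fell in KO_trg (median 0.02), where 3 (Galnt1, Slc35c1 and B4galt1) were lower at an unadjusted p below 0.05 in edgeR and DESeq2 called 1 lower. Of all genes, 23.3% rose and 25.4% fell in KO_con, and 4.01% rose and 3.82% fell in KO_trg. With upper-quartile factors 6 of the 13 rose and none fell in KO_con, and with T cell gene scaling 11 rose in KO_con and 7 in KO_trg and none fell. The count of 2 in KO_trg was 1 with only the regulatory libraries in the fit, with the block, with no filter on low counts and without any 1 of WT_con replicates 1, 2 and 3, KO_con replicate 1, WT_trg replicates 1 and 2 and KO_trg replicates 2 and 3. Among those that rose in KO_con were enzymes that build the sugar on PSGL-1. Gcnt1, which makes the core 2 branch, went from 2.97 ± 0.302 to 21.4 ± 2.26 CPM, a change of 2.85 (adjusted p = 2.45e-06). The fucosyltransferases followed, Fut7 from 1.25 ± 0.156 to 5.20 ± 0.895 CPM with a change of 2.06 (adjusted p = 2.54e-05), and Fut4 from 0.482 ± 0.112 to 5.31 ± 2.02 CPM with 3.45 (adjusted p = 6.87e-06). In regulatory cells Fut7 rose from 3.12 ± 0.183 to 5.31 ± 1.16 CPM, a change of 0.77 (adjusted p = 0.0412), and the sialyltransferase St3gal3 from 12.9 ± 0.778 to 18.6 ± 0.507 CPM, a change of 0.52 (adjusted p = 0.00503). The GDP-fucose transporter Slc35c1 (-0.19, adjusted p = 0.0226), C1galt1 (-0.27, adjusted p = 0.0268) and Galnt1 (-0.11, adjusted p = 0.0337) fell in KO_con. Selplg, the carrier of these sugars, was not called between genotypes. These enzymes are also made by myeloid cells, whose markers were higher in KO_con, and that part was not tested.

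Of 25 other adhesion receptors and ligands tested, 6 rose and 6 fell in KO_con (median 0.35), and 1 rose and 5 fell in KO_trg (median 0.18). In KO_con both counts were near the shares of all genes, of which 23.3% rose and 25.4% fell. In KO_trg 4.01% of all genes rose and 3.82% fell. None of the 25 fell with T cell gene scaling, and 13 rose in KO_con and 9 in KO_trg. With only the regulatory libraries in the fit, 1 rose and none of the 5 decreases in KO_trg was called. The count of 6 there was 3 without WT_trg replicate 1 or KO_trg replicate 1, 2 without WT_trg replicate 2 and 10 without WT_trg replicate 3. Alcam, the ligand of CD6, rose from 1.79 ± 0.734 to 13.1 ± 4.58 CPM in KO_con, a change of 2.87 (adjusted p = 2.72e-05), and E-cadherin (Cdh1), the ligand of Itgae with Itgb7, rose from 0.862 ± 0.276 to 6.41 ± 1.78 CPM, a change of 2.89 (adjusted p = 7.5e-05). The part of macrophages and dendritic cells, whose markers were higher in KO_con, in the rise of Alcam and Cdh1 was not tested. The nectin-like ligand Pvr was lower in both cell types, with changes of -0.54 (adjusted p = 0.000454) and -0.49 (adjusted p = 0.00953). So was Cd47, a signal on T cells read by phagocytes, with -0.17 (adjusted p = 0.00321) and -0.17 (adjusted p = 0.0223). Cd2 was lower in KO_con (-0.46, adjusted p = 0.00717) and its ligand Cd48 in KO_trg (-0.43, adjusted p = 0.0125). Madcam1, the vascular ligand of Itga4 with Itgb7, rose from 0.618 ± 0.121 to 2.02 ± 0.518 CPM in KO_trg, a change of 1.72 (adjusted p = 0.0232). The 13 endothelium and stroma markers summed to 55.3 to 253 CPM in WT_trg and 186 to 546 in KO_trg, and their part in this result was not tested.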

How the data were processed

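Polyadenylated RNA of 12 libraries was measured, and the authors deposited raw read counts per Ensembl gene, with 4 tallies of reads given to no gene that were left out. Per the submitters' processing notes the mapper was STAR and the build GRCm38. Per the file name the reverse strand was counted, and the kit was stranded per the labels. The annotation release is not given in the sources used here. Reads that map to more than 1 place are in a tally, so genes with close copies may be undercounted. Symbols matched 45143 of 45706 identifiers. Exon lengths and gene coordinates came from GENCODE M21 (GRCm38), promoters from RefSeq. Gene counts were 19686870 to 33404302 per library, and the biological coefficient of variation was 0.155.

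All 12 libraries entered 1 edgeR 4.0.16 quasi-likelihood fit (R 4.3.3) with a term per group, TMM factors and a minimum count of 10 (total of 15), which kept 15922 genes. P-values were two-sided and Benjamini-Hochberg adjusted over all of them, with a threshold of 0.05. Standard errors were derived from the F statistic. The fit was tested on simulated data. The 5 comparisons were knockout against WT in each cell type, regulatory against conventional in each genotype, and the difference of the knockout effects. The members and lists were chosen with earlier results of these data known. Members with a group mean of at least 5 CPM and a call are described in full, the others by counts, and up to 3 genes with the smallest p per direction are named from each related list. Other settings were RLE, upper-quartile and T cell gene scaling, DESeq2 1.42.0, limma-voom 3.58.1, 2 other filters, a block for the replicate number, fits of the compared groups alone, the omission of each library and a fold minimum of 1.5. The omission of the 2 mixed libraries and a term for Xist were added after seeing the data. Some genes of this class are not analysed here, and 2 listed genes (Gfus and Cd99) had no row under those symbols.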

Additional observations from a re-analysis of the deposited data

Results flagged for a closer look

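The effect of the knockout differed between conventional and regulatory libraries, by the test of the difference itself (edgeR, regulatory minus conventional log2 fold change, adjusted over all genes), for 18 of the 32 tested genes. Of all genes, 8.86% had a difference above 0 and 12.4% below 0. Among the beta 2 integrins the genes called were Itgax (-3.25), Itgam (-3.09), Itgal (-0.39) and Itgb2 (-0.32). Among the beta 1 integrin and its partners they were Itgb1 (-1.28), Itga2 (-1.56), Itga8 (-2.52), Itga6 (0.46) and Itga10 (0.96). The value of Itga8 rests on 3 reads in WT_con and depends on the prior count of the fit. The gut and epithelial integrins Itgae (-1.74) and Itga4 (-0.35) and the alpha v group with Itgav (-0.65), Itgb4 (-2.02) and Itgb8 (-2.68) followed. Of the remaining genes Cd44 (-1.24), Selp (-0.89), Icam1 (-0.50) and Icam2 (0.66) were called. Marker genes were called below 0 too, 9 of 10 of NK cells, 12 of 12 of B cells and 8 of 14 of neutrophils. So were 8 of 10 of dendritic cells and 7 of 15 of macrophages and monocytes. None of these markers was called above 0, and no platelet or endothelium and stroma marker was called. The part of those cells in the differences was not tested.

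Of these 18, Cd44, Icam1, Icam2, Itga2, Itgae, Itgam, Itgav, Itgax, Itgb1 and Itgb4 kept the call without any single library. With T cell gene scaling the call was lost for 4 of these 10, Itga2 (0.0552), Itgav (0.191), Icam2 (0.345) and Icam1 (0.47, all adjusted p), and for 7 of the other 8, Itgb8 aside. Itgb2 lost it without WT_con replicate 3 or KO_con replicate 3, Itgb8 (-2.001 without KO_con replicate 2) without WT_con replicate 2 or WT_con replicate 3, and Itga6 without KO_trg replicate 2 (0.36, adjusted p = 0.0503, with a range over the alternatives of 0.00185 to 0.575). Itga4, Itgal, Itga8, Itga10 and Selp lost it without 7, 7, 8, 8 and 10 of the 12 libraries in turn, with adjusted p of up to 0.103 when 1 library was left out. KO_trg replicate 1 holds the highest macrophage marker sum of its group (2777 CPM, with 1280.2 and 1294 in the others), and without it the difference was called for 24 genes, among them Vcam1, Itgad, Itga9 and Itgb5.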

How the results depend on the processing

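Of 3642 values of single genes under other settings, 3361 kept direction and side of the threshold, 170 lost a call, 98 gained one and 13 changed sign, and 61 values without a call in either fit also changed sign. Leaving out single libraries gave 20 to 25 calls in conventional cells, 3 to 7 in regulatory cells, 20 to 26 and 18 to 23 between cell types of WT and knockout, and 11 to 24 for the difference of effects. In regulatory cells the count was 10 with DESeq2, 3 with only the groups compared and 13 with T cell gene scaling, which gave 7 for the difference of effects. All 13 changes of sign came with T cell gene scaling: in conventional cells Itgb3 (0.57), Itgb7 (0.17), Selplg (0.51) and Pecam1 (0.30), between WT cell types Itga6 (0.11), Itgal (0.25), Itgb2 (0.25), Selplg (0.32) and Icam2 (0.54), and between knockout cell types Itga6 (0.52), Itgav (0.056), Itgb7 (0.12) and Selplg (0.36). That scaling raises the median of all genes by construction. Of 357 counts of the related lists, 57 moved by over 1.5 times. Over all genes the count of differences was 951 with T cell gene scaling and 2018 with the fold minimum, in place of 3393. With the replicate number as a block the counts were 23, 5, 22, 19 and 14. Same-numbered libraries correlated from -0.72 to 0.45 and 3 of 12 matched their own number best, so the numbers were not read as pairs. The fold minimum applies to counts and has no value for single genes. Itga8, Itga11 and Itgb6 are limited by depth.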
